A study of Mus musculus with 18 samples.

Results

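The Krüppel-like factors described here are the 8 genes Klf2, Klf3, Klf4, Klf6, Klf7, Klf10, Klf11 and Klf13, chosen by name among the 55487 genes of each count file, with no measured value in the rule. The choice was made with earlier results of these data known. Of these 8 genes, 7 passed the filter on low counts, as did 6 of the remaining 9 Klf genes of the mouse, and Klf4 did not. RNA was sequenced from WEHI-231, a murine B cell lymphoma line with an IgM B cell receptor (BCR), in 18 libraries, 2 for each of 9 groups. They comprised the parental line and 2 clones mutant for TFEB, #A-59 and #B-20, either without stimulus (0 h) or after 6 or 18 h with F(ab')2 fragments against mouse IgM at 10 µg/ml. All groups shared the line and a serum-containing RPMI medium. Each mutant is 1 single-cell clone made with Cas9 and crRNAs against the Tfeb gene, so that an effect of the mutation and a property of the clone cannot be told apart. TFEB is a basic helix-loop-helix leucine zipper transcription factor known for inducing lysosomal and autophagy genes.

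Krüppel-like factors are transcription factors that bind GC-rich and CACCC sequences through zinc fingers at their carboxy terminus, and differ in the cofactors recruited by the rest of the protein. Klf2, Klf4, Klf6 and Klf7 are known mostly as activators, Klf3 recruits the corepressor CtBP, and Klf10, Klf11 and Klf13 bind Sin3 corepressors, Klf10 and Klf11 being early genes of the TGF-β response. In lymphocytes Klf2 is known for maintaining quiescence and for controlling homing receptors, antigen receptor signals silence it, and Klf2 and Klf3 shape the follicular and marginal zone B cell compartments.

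Library totals ranged from 11223588 counts (parental, 18 h, replicate 1) to 29655262, with a median of 19846544. Levels are given as CPM (counts per Mio of the TMM-scaled library total), and as RPKM (CPM per 1000 bases of exon) wherever genes are compared with each other. A gene was called changed where edgeR's quasi-likelihood test over 15318 genes gave an FDR under 0.01 and its log2 fold change lay above 1 or below -1. Tfeb transcripts were lower in the mutants, at 25.5 to 40.5 CPM in #A-59 and 34.2 to 54.1 CPM in #B-20 against 79.2 to 99.9 CPM in parental cells, although the lower level in #B-20 at 6 h, a log2 fold change of -0.81 ± 0.11 (SE), did not reach the log2 limit. The 10 B cell markers summed to 6919 to 15200 CPM in every library with Ighm as the highest, whereas 6 T cell markers summed to at most 0.985 CPM and 4 erythroid markers to at most 1.76 CPM. The 6 myeloid markers, led by Itgam, summed to 7.86 to 27.9 CPM in #A-59, 1.92 to 9.01 in parental cells and 2.81 to 7.05 in #B-20. The 5 stromal and epithelial markers, led by Pecam1, summed to 106 to 237 CPM in #A-59, 46.3 to 106 in parental cells and 62.7 to 159 in #B-20. The cells that carried these marker transcripts, and their part in the results, were not tested. In bulk RNA, fewer cells with a transcript and less of it per cell cannot be told apart.

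WEHI-231 cells expressed a broad set of the family. Per exon length, Klf2 was the most abundant of all 17 Klf genes, with a median of 44.7 RPKM over the 18 libraries, a level above that of 95.4% of the tested genes. Klf13 followed at 15.3 RPKM, ahead of Klf16 and Klf5. Klf6 had a median of 6.26 RPKM, Klf3 of 5.56, Klf10 of 3.71, Klf11 of 1.58 and Klf7 of 1.28. Klf4, a factor of epithelia, myeloid cells and pluripotent cells that also restrains B cell proliferation, was at a median of 0.0303 RPKM, with 42 counts in all 18 libraries together and at most 7 in any. With the longest transcript as gene length in place of all exons, Klf3 moved to 10.1 RPKM and above Klf6 (6.55), because its exons cover 14998 bases and its longest transcript 8240. Klf14, Klf15 and Klf17 had a median of 0, with 1, 0 and 7 counts in all libraries together.

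**Figure D1:**
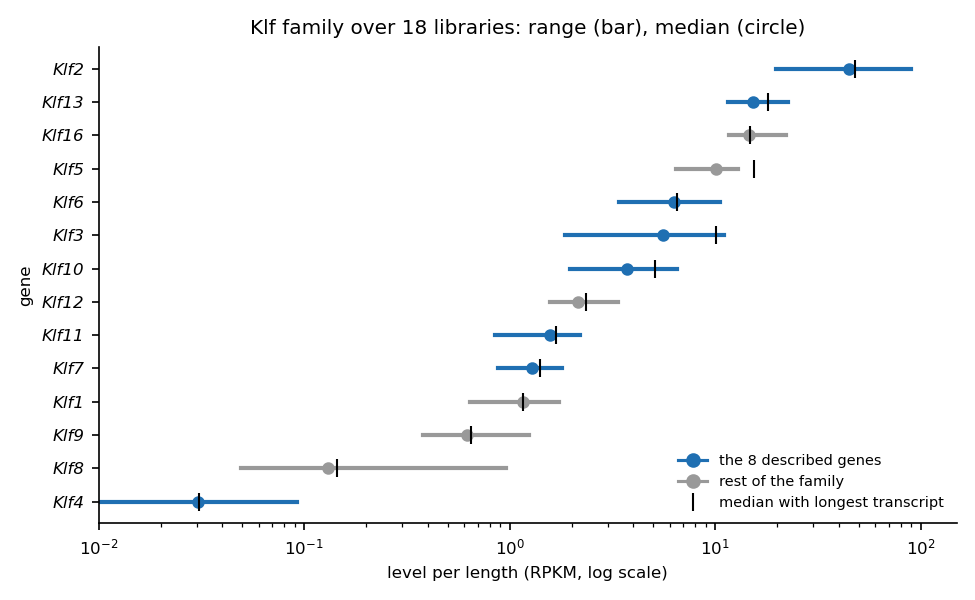
Level per length (RPKM, log axis) of the 14 Klf genes whose median over 18 libraries was above 0, with bars from the lowest to the highest library, circles at the median and ticks at the median computed with the longest transcript. Klf2 lies highest at 44.7 RPKM and Klf4 lowest at 0.0303 RPKM, and the bar of Klf4 is drawn to the edge of the axis because its lowest library had 0 counts.

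The windows from 250 bases before to 50 bases after the transcript start are shown for Klf2 and Klf3, the members with called changes, and for the members whose window holds the E-box core CACGTG. TFEB is known to bind this core within the CLEAR motif, represented here by its core TCACGTGA. The sequences are those of RefSeq on GRCm38.p6, 5′ to 3′ on the strand of the gene, with a motif in capitals. The Klf2 window (chr8:72318812-72319111, + strand, 69.3% GC) and the Klf3 window (chr5:64803271-64803570, + strand, 76.7% GC) hold none of the motifs in the exact letters searched, on either strand. Besides those cores, the search took in the FoxO site, written GTAAACA, the MEF2 site, written CTATTTATA, and the KLF site, written CCACACCC. Only these exact letters were searched. A window without a match can therefore hold a site of the same factors in other letters, which was not searched. The shorter letters CACCC, for example, stand in the printed Klf3 window, and on the opposite strand in the Klf2 window. No share over all windows was computed for them.
Klf2: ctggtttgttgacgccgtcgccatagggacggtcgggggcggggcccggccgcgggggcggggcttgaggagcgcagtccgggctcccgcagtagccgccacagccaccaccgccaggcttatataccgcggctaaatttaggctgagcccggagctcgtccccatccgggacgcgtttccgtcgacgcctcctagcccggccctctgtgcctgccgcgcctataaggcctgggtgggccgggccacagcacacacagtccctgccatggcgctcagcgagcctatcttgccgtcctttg
Klf3: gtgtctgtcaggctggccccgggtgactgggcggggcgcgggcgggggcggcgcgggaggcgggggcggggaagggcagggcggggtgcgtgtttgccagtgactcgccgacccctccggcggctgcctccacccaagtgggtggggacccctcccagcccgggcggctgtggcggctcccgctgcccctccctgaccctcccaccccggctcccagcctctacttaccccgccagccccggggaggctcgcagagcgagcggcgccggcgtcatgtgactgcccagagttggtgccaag

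The E-box core lies in the windows of Klf6 (chr13:5861239-5861538, + strand, 63% GC, 43 bases before the start), Klf11 (chr12:24651121-24651420, + strand, 77.7% GC, 214 bases before) and Klf4 (chr4:55532426-55532725, - strand, 74.3% GC, 182 bases before).
Klf6: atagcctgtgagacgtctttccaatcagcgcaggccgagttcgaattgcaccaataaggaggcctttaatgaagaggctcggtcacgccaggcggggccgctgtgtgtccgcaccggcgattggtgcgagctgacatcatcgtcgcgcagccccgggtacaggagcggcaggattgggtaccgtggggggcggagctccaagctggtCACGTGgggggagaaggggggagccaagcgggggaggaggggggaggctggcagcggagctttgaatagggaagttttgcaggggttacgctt
Klf11: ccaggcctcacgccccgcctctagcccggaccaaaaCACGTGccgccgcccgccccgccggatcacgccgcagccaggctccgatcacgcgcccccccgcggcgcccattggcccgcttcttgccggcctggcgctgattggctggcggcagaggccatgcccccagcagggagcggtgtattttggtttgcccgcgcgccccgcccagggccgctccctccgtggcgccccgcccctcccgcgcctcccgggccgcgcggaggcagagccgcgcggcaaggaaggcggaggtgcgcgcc
Klf4: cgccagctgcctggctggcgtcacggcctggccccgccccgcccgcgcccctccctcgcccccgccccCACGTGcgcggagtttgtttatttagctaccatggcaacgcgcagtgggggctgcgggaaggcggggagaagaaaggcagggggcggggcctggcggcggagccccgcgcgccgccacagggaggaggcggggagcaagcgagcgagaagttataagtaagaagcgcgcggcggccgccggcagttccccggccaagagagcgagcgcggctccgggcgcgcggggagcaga
None of these 3 cores is flanked on both sides as in TCACGTGA, although the core of Klf6 has the T before it and lacks only the A after it. Of all 32851 windows of the mouse table, 7.15% hold CACGTG and 0.974% hold TCACGTGA, and each window with the longer core is counted under the shorter one too. The FoxO site was found in 3.65% of all windows, the MEF2 site in 0.429% and the KLF site in 3.56%. The windows of Klf7 and Klf13 hold none of the 5 motifs in the exact letters searched, and Klf10 has no entry in the table. A match is a description of the letters and was not tested as a binding site.

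Stimulation of the BCR moved Klf2 and Klf3 in opposite directions early and late. In parental cells both transcripts fell within 6 h, Klf2 to 0.437-fold and Klf3 to 0.384-fold, and from 6 to 18 h both rose, Klf2 by 3.43-fold and Klf3 by 5.19-fold. In #A-59 both rose from 6 to 18 h, and in #B-20 Klf2 did. None of the remaining members was called in any comparison of times. At 6 h against 0 h, 2 of 7 tested members were called in parental cells, both lower, beside 2.62% of all tested genes. No member was called in #A-59 (background 1.39%) and none in #B-20 (0.385%), by edgeR or by DESeq2, while 3 members in #A-59 and 5 in #B-20 had an unadjusted p under 0.05. At 18 h against 0 h, no member was called in parental cells (10.3% of all genes), #A-59 (8.76%) or #B-20 (4.8%) by either tool, with 5, 4 and 4 members at an unadjusted p under 0.05, respectively. From 6 to 18 h, 2 of 7 members were called in parental cells beside 13.5% of all genes, 2 of 7 in #A-59 beside 9.02% and 1 of 7 in #B-20 beside 4.45%, all higher. The median log2 fold change of the 7 members from 6 to 18 h was 0.81 in the parental line, 0.54 in #A-59 and 0.52 in #B-20, against 0.03, 0.01 and -0.01 for all tested genes. All comparisons of one genotype share libraries, so their values are set side by side and are not independent.

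**Figure D2:**
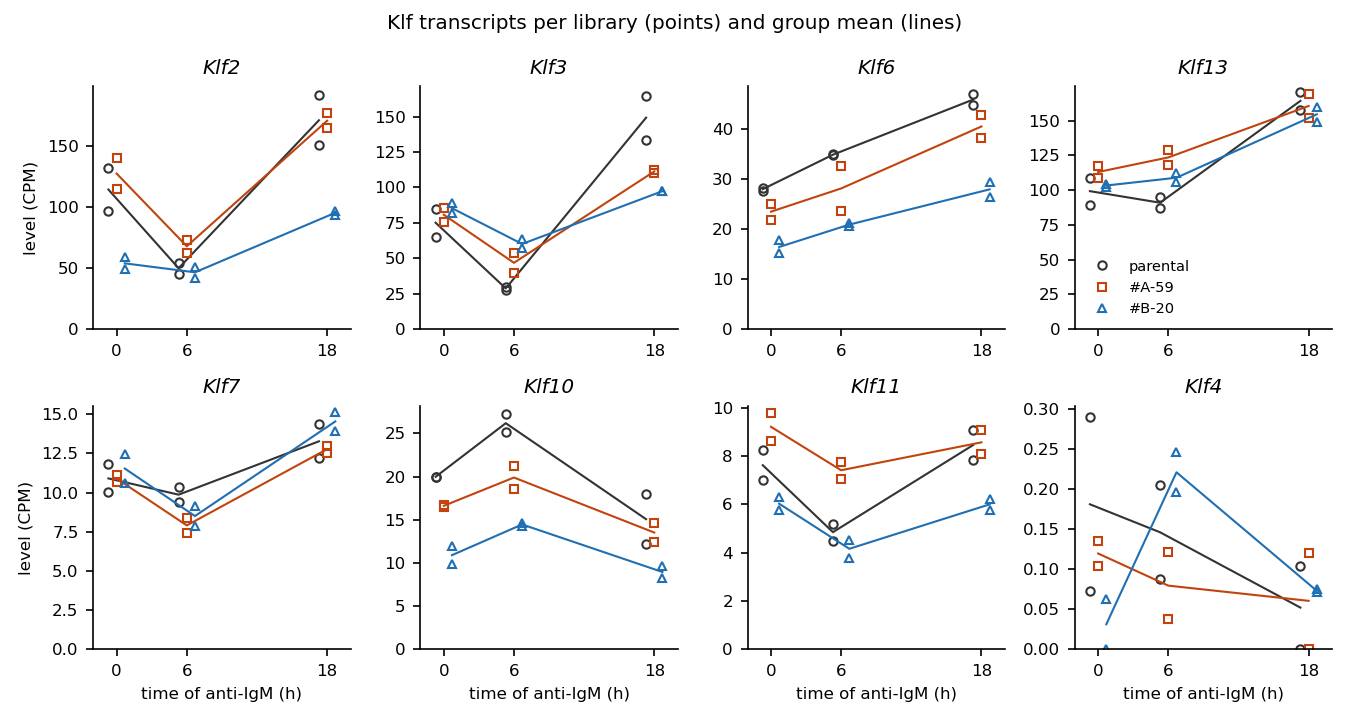
Level (CPM) of the 8 members against hours of anti-IgM (0, 6 and 18 h, points offset by genotype), with 1 point for each of the 2 libraries of a group and lines through group means. Klf2 and Klf3 dip at 6 h in parental cells, Klf6 and Klf10 are lowest in #B-20 at each time, and the points of Klf4 stand for 0 to 7 counts.

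Klf2, the regulator of quiescence and homing, was at 97.1 and 132 CPM in the 2 untreated parental libraries, 45.6 and 54.4 CPM after 6 h, and 151 and 192 CPM after 18 h. The 3 parental groups did not overlap. Its fall at 6 h was a log2 fold change of -1.19 ± 0.16 (SE, edgeR adjusted p = 6.37e-05) and its rise from 6 to 18 h one of 1.78 ± 0.16 (adjusted p = 1.25e-07). Without parental 0 h replicate 2, the higher of that pair, the 6 h value was -0.96 and no longer called. In #A-59 Klf2 went from 140.5 and 115 CPM to 73.2 and 62.9 CPM at 6 h, then to 177 and 165 CPM at 18 h. This clone's libraries followed the parental order of times without overlap, with a log2 value of -0.91 ± 0.16 at 6 h that missed the limit and a rise of 1.33 ± 0.16 from 6 to 18 h (adjusted p = 5e-06). Without #A-59 0 h replicate 2 the 6 h value was -1.05 and called. In #B-20 Klf2 was at 49.2 and 58.8 CPM untreated, 42.1 and 51.2 CPM after 6 h, and 97.1 and 93.8 CPM after 18 h. Here the untreated and 6 h libraries overlapped (-0.22 ± 0.16, adjusted p = 0.603), and the rise from 6 to 18 h was 1.04 ± 0.16 (adjusted p = 0.000114). The rise in #B-20 fell under the log2 limit with a correction for GC content (0.87) and without #B-20 6 h replicate 1 (0.89). At 18 h against 0 h Klf2 was at log2 values of 0.58 in the parental line, 0.42 in #A-59 and 0.82 in #B-20, none called.

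Klf3, the CtBP-binding repressor, showed the widest range of the 7 tested members, with group means spanning 2.36 on the log2 scale. In parental cells it was at 65.3 and 85.0 CPM untreated, 28.0 and 29.7 CPM after 6 h, and 134 and 165 CPM after 18 h. The 3 parental groups were separate, with a log2 fold change of -1.38 ± 0.14 at 6 h (adjusted p = 2.09e-06) and a rise of 2.38 ± 0.14 from 6 to 18 h (adjusted p = 6.5e-10). In #A-59 the libraries were at 75.9 and 85.6 CPM, then 40.0 and 53.8 CPM, then 112 and 110.4 CPM. The value at 6 h was -0.79 ± 0.14 and not called, or -1.01 and called without #A-59 6 h replicate 2, and the rise from 6 to 18 h was 1.26 ± 0.14 (adjusted p = 1.34e-06). In #B-20 the libraries were at 81.8 and 89.0 CPM, 57.0 and 63.4 CPM, and 97.3 and 97.4 CPM. Their order was the same, and the log2 values of -0.51 ± 0.14 at 6 h and 0.70 ± 0.14 from 6 to 18 h were not called. At 18 h against 0 h, Klf3 lay at 0.99 ± 0.14 in parental cells (adjusted p = 1.08e-05), just short of the limit, at 0.47 in #A-59 and at 0.19 in #B-20. The parental value passed the limit at 1.10 without parental 18 h replicate 1, at 1.16 without parental 0 h replicate 2, and at 1.01 when the test was limited to genes reaching 10 counts in every library. An antisense lncRNA gene, Gm20033, overlaps 643 exonic bases of Klf3 and held 237 counts in all libraries against 29848 for Klf3, and reads of the overlap cannot be assigned to a strand here.

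**Figure D3:**
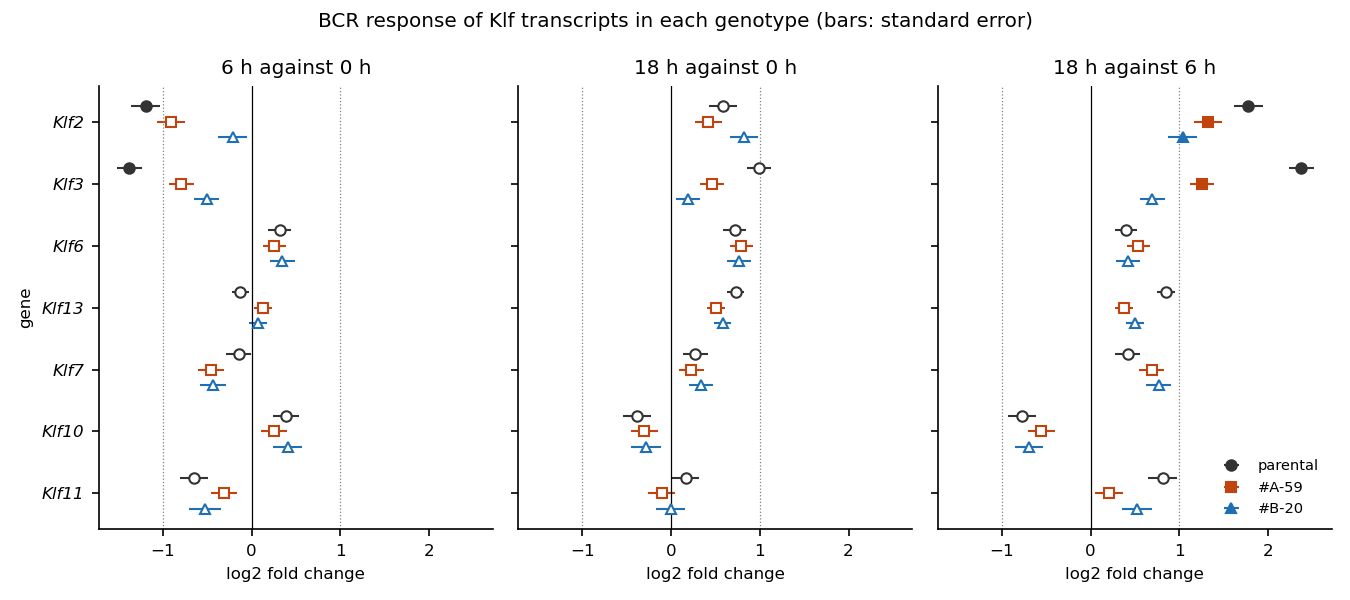
Log2 fold change of the 7 tested members (rows) between times of anti-IgM within each genotype, with bars of 1 standard error, filled symbols for called changes and dotted lines at the limits of -1 and 1. Klf2 and Klf3 are the only members with filled symbols, at -1.19 and -1.38 for 6 h against 0 h in parental cells, and up to 1.78 and 2.38 for 18 h against 6 h.

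Klf6, a zinc finger activator of stress and growth control genes, stood higher at the later time in every genotype without passing the limit. It was at 27.7 and 28.3 CPM in untreated parental cells, 34.9 and 34.8 CPM after 6 h, and 44.8 and 47.0 CPM after 18 h. Its libraries at 18 h lay above those at 0 h in all 3 genotypes, with log2 values of 0.72 ± 0.13 in parental cells (adjusted p = 0.00017), 0.79 ± 0.13 in #A-59 (adjusted p = 7.43e-05) and 0.77 ± 0.14 in #B-20 (adjusted p = 0.000257). Klf7, a relative of Klf6 studied mainly in neurons and fat cells, ranged from 7.43 to 15.2 CPM over all libraries. From 6 to 18 h its log2 values were 0.42 ± 0.14 in the parental line, 0.69 ± 0.14 in #A-59 and 0.77 ± 0.14 in #B-20.

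Among the Sin3-binding members, the values of Klf10 had the opposite sign to those of most members. It was at 20 and 19.9 CPM in untreated parental cells, 25.1 and 27.2 CPM after 6 h, and 12.1 and 18.0 CPM after 18 h. From 6 to 18 h it was the only tested member with a negative log2 value in each genotype, at -0.77 ± 0.15 in parental cells (adjusted p = 0.000348), -0.56 ± 0.16 in #A-59 and -0.69 ± 0.16 in #B-20, none called. Without parental 18 h replicate 2 the parental value was -1.13 and called. Klf11 was at 7.02 and 8.23 CPM in untreated parental cells, 4.50 and 5.20 CPM after 6 h, and 7.85 and 9.08 CPM after 18 h. Its log2 value at 6 h was -0.65 ± 0.16 in parental cells (adjusted p = 0.00838), -0.31 ± 0.15 in #A-59 and -0.53 ± 0.18 in #B-20. Klf13, known in T cells as an activator of the chemokine gene Ccl5, was at 89.6 and 109 CPM in untreated parental cells, 87.1 and 94.9 CPM after 6 h, and 158 and 171 CPM after 18 h. Its 18 h libraries lay above its 0 h libraries in all 3 genotypes, at log2 values of 0.73 ± 0.10 in parental cells (adjusted p = 1.05e-05), 0.51 ± 0.10 in #A-59 and 0.58 ± 0.10 in #B-20. Klf4 had 2 and 7 counts in untreated parental libraries, 2 and 5 at 6 h and 0 and 2 at 18 h, with 0 to 5 counts in the mutant libraries. These counts give no difference that was detectable at this depth, and no fold is given.

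Against parental cells, 1 member was called in untreated #B-20 cells, another in this clone at 6 h, and no member in #A-59. Untreated #B-20 cells had less Klf2, at 0.472-fold of the parental level, while #A-59 cells did not (1.12-fold, adjusted p = 0.598). After 6 h of anti-IgM, #B-20 cells had more Klf3, at 2.09-fold of the parental level. At 0 h, 1 of 7 tested members was called in #B-20, lower, beside 5.16% of all tested genes, and none in #A-59 beside 4.78%. At 6 h, 1 of 7 was called in #B-20, higher, beside 6.73% of all genes, and none in #A-59 beside 7.91%. At 18 h no member was called in #A-59 (4.92% of all genes) or #B-20 (6.21%). DESeq2 gave the same numbers of calls in all 6 comparisons. Where edgeR called none, 0 members in #A-59 at 0 h, 7 at 6 h and 1 at 18 h had an unadjusted p under 0.05, as had 5 in #B-20 at 18 h. The median log2 difference of the members at 0, 6 and 18 h was 0.10, 0.44 and -0.05 for #A-59, and -0.34, -0.21 and -0.62 for #B-20, against medians between -0.02 and 0.01 for all genes.

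**Figure D4:**
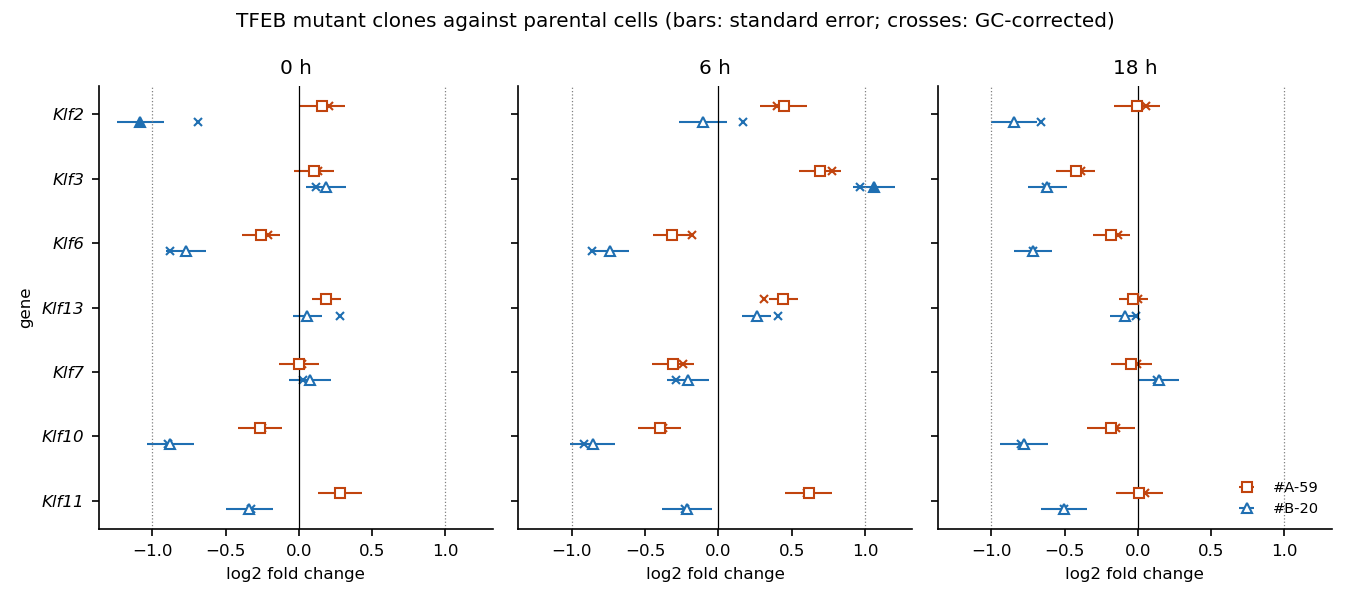
Log2 fold change of the 7 tested members (rows) in each TFEB mutant clone against parental cells at 0, 6 and 18 h, with bars of 1 standard error, filled symbols for called changes, dotted lines at -1 and 1, and crosses for the value after GC correction. The filled symbols are Klf2 in #B-20 at 0 h (-1.08) and Klf3 in #B-20 at 6 h (1.06), and the cross of Klf2 at 0 h lies at -0.69.

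Klf2 in untreated #B-20 cells (49.2 and 58.8 CPM) lay under both parental libraries (97.1 and 132 CPM), with a log2 fold change of -1.08 ± 0.16 (SE, edgeR adjusted p = 0.000112). At 6 h the groups overlapped (-0.10 ± 0.16), and at 18 h #B-20 was again below both parental libraries, at -0.85 ± 0.16 (adjusted p = 0.000716), a value that was not called. The values in #A-59 were 0.16 at 0 h, 0.45 at 6 h and -0.01 at 18 h, none called. The transcripts of Klf2 have a GC content of 62.1%, above that of 98.8% of the tested genes, and log2 fold changes of #B-20 against parental cells correlated across genes with GC content at Spearman's rho of -0.34 at 0 h, -0.27 at 6 h and -0.06 at 18 h. Genes are not independent replicates, and this is given as a description. With GC correction, Klf2 in #B-20 was at -0.69 at 0 h, 0.17 at 6 h and -0.67 at 18 h, so that the call at 0 h was lost and the direction at 6 h, which was not called, turned. The call at 0 h also ended without #B-20 0 h replicate 1 (-0.96) and without parental 0 h replicate 2 (-0.85).

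The untreated libraries of Klf3 overlapped between parental and mutant cells, with log2 values of 0.10 ± 0.14 in #A-59 (adjusted p = 0.706) and 0.19 ± 0.14 in #B-20 (adjusted p = 0.396). After 6 h the parental libraries, at 28.0 and 29.7 CPM, lay below all 4 mutant libraries, at 40.0 and 53.8 CPM in #A-59 and 57.0 and 63.4 CPM in #B-20. The difference was 1.06 ± 0.14 in #B-20 (adjusted p = 1.78e-05), which was called, and 0.69 ± 0.14 in #A-59 (adjusted p = 0.000964), which was not. At 18 h the order of the genotypes was turned, with both parental libraries above all mutant libraries, at -0.43 ± 0.14 in #A-59 (adjusted p = 0.0365) and -0.62 ± 0.14 in #B-20 (adjusted p = 0.00231), neither called. The call at 6 h in #B-20 rested on a value near the limit, and was 0.97 with GC correction and 0.98 without #B-20 6 h replicate 2.

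Klf6 and Klf10 lay lower in #B-20 than in parental cells at each time, below the called size. Klf6 was at 17.7 and 15.1 CPM without stimulus, 20.6 and 21.2 CPM after 6 h, and 29.4 and 26.5 CPM after 18 h in #B-20. These libraries lay under the parental libraries of the same time, with log2 values of -0.77, -0.74 and -0.72 and adjusted p of 0.000441, 0.000343 and 0.000375. Klf10 was at 11.9 and 9.86 CPM without stimulus, 14.3 and 14.6 CPM after 6 h, and 8.21 and 9.66 CPM after 18 h in #B-20, with log2 values of -0.88, -0.86 and -0.78 and adjusted p of 0.00055, 0.000326 and 0.00141. Klf10 passed the limit at 0 h without #B-20 0 h replicate 1 (-1.02) and at 18 h without parental 18 h replicate 1 (-1.0). In #A-59 the values of Klf6 were -0.26, -0.32 and -0.18, and those of Klf10 -0.27, -0.40 and -0.18. At 6 h Klf11 was at 0.62 ± 0.16 in #A-59 (adjusted p = 0.00557) and at -0.51 ± 0.16 in #B-20 at 18 h (adjusted p = 0.0249). At 6 h Klf13 was at 0.44 ± 0.10 in #A-59 (adjusted p = 0.00207), and between -0.09 and 0.26 in the remaining 5 comparisons with parental cells. Klf7 lay between -0.31 and 0.14.

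Whether a clone's response to anti-IgM differed from the parental response was tested by an interaction term. For Klf2 and Klf3 the values at 6 h lay nearer 0 in both clones than in parental cells, but no member passed the test of this difference. At 6 h, 0 of 7 members were called in #A-59 (0.339% of all genes) and in #B-20 (0.131%), and at 18 h 0 of 7 in #A-59 (0.0326%) and in #B-20 (0.163%). DESeq2 called none either, and 1, 2, 1 and 1 members had an unadjusted p under 0.05. For Klf2 the difference in response at 6 h was 0.98 ± 0.23 on the log2 scale in #B-20 (edgeR adjusted p = 0.0741) and 0.29 ± 0.22 in #A-59 (adjusted p = 0.623). For Klf3 it was 0.87 ± 0.20 in #B-20 (adjusted p = 0.0539) and 0.59 ± 0.20 in #A-59 (adjusted p = 0.149). At 18 h it was -0.80 ± 0.19 for Klf3 in #B-20 (adjusted p = 0.0607) and -0.53 ± 0.19 in #A-59 (adjusted p = 0.512). With GC correction the Klf2 difference in #B-20 at 6 h was 0.86, with an adjusted p of 0.0099, still under the log2 limit. That of Klf3 in #B-20 was then 0.85 at 6 h and -0.75 at 18 h (edgeR adjusted p = 0.0221 and 0.0388). In #A-59 the Klf3 difference was 0.65 at 6 h and -0.51 at 18 h (adjusted p = 0.0607 and 0.348), and none of these was called.

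Set against each other, the clones differed most in untreated Klf2, where #B-20 was at 0.423-fold of #A-59 with a log2 fold change of -1.24 ± 0.16 (adjusted p = 3.88e-05). The libraries of #B-20 (49.2 and 58.8 CPM) lay far below those of #A-59 (140.5 and 115 CPM). This was 1 of 7 members called at 0 h, beside 3.85% of all tested genes. Across genes the fold changes between the clones at 0 h had a Spearman's rho of -0.40 with GC content, and after GC correction Klf2 was at -0.89, under the log2 limit. At 6 h (5.82% of all genes) and 18 h (4.82%) edgeR and DESeq2 called no member, with 5 and 4 members at an unadjusted p under 0.05. Klf2 was at -0.55 and -0.84 at these times, and Klf11 at -0.62, -0.83 and -0.52 at 0, 6 and 18 h, not called.

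The order of groups differed between members. Klf2 was highest in parental and #A-59 cells at 18 h (171 CPM in both means), then in these genotypes untreated, and lowest in #B-20 at 6 h (46.7 CPM), and 5 of the 8 pairs of neighbouring groups in this order overlapped. The order of Klf3 ran from parental cells at 18 h (149 CPM) to parental cells at 6 h (28.8 CPM), with 2 of 8 neighbouring pairs overlapping. Klf6 went from parental cells at 18 h (45.9 CPM) to untreated #B-20 cells (16.4 CPM), also with 2 overlapping pairs. Neighbours overlapped in 5 of 8 pairs for Klf7 and Klf13, 4 for Klf10, 6 for Klf11 and all 8 for Klf4. Overlap was not counted for all tested genes. No share over all genes therefore stands beside these counts or the separations of libraries given above, and they are descriptions only. Over the 9 group means, which share genotypes and times, Pearson's r between members was highest for Klf2 and Klf11 (0.86), was 0.75 for Klf2 and Klf3, and was lowest for Klf3 and Klf10 (-0.69).

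The genes with profiles most like a member were sought by Pearson's r over the 9 group means, among some 7498 genes whose means spanned at least 1 on the log2 scale. They were Tmem50b (0.98), Camk2n1 (0.97) and Trim15 (0.97) for Klf2, and Ckap4 (0.98), Gm15853 (0.97) and Ralgps1 (0.96) for Klf3. Klf6 was followed by Cd38 (0.99), Gm16015 (0.99) and Plekho1 (0.99), and Klf13 by Ganc (0.99), Cnnm4 (0.99) and Elf4 (0.99). For Klf10 they were Gphn (0.98), Mir9-3hg (0.98) and Fndc5 (0.97), for Klf11 Gamt (0.95), Cacna1d (0.94) and Rnf213 (0.94), and for Klf7 0610009L18Rik (0.97), the gene ENSMUSG00000067929 (0.94) and Ripor2 (0.93). With 9 points chosen from so many genes, these values are a description only.

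Of the rest of the Klf family, Klf8 and Klf9 were called in some comparison. Klf8, a CtBP-binding relative of Klf3, was at 1.30 and 0.910 CPM in untreated parental cells, 0.440 and 1.04 CPM in #A-59 and 6.89 and 8.62 CPM in #B-20. It was higher in #B-20 than in parental cells by a log2 fold change of 2.79 ± 0.25 at 0 h, 3.07 ± 0.28 at 6 h and 1.05 ± 0.23 at 18 h (adjusted p = 1.4e-07, 1.31e-07 and 0.00251). The value at 18 h was not called without parental 18 h replicate 1 (1.01), parental 18 h replicate 2 (1.12) or #B-20 18 h replicate 2 (0.99). In #A-59 Klf8 was lower at 18 h, with a log2 fold change of -1.87 ± 0.31 (adjusted p = 0.00026) that was not called without #A-59 18 h replicate 1 (-1.67). In parental cells it rose by 1.47 from 0 to 18 h. Klf9 rose from 0 to 18 h in parental cells (1.17 ± 0.20, adjusted p = 9.89e-05), and from 6 to 18 h in parental cells (1.06) and #A-59 (1.21). In parental cells both calls ended without parental 18 h replicate 2 (0.89 and 0.79), the first also without parental 0 h replicate 1 (0.92) and the second without parental 6 h replicate 1 (0.90).

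The trafficking and B cell subset genes tied to Klf2 in lymphocytes moved in both directions. From 0 to 18 h, 3 of 7 were called higher and 0 lower in each of the 3 genotypes, and these were S1pr4, Itgb7 and Ccr7. Of all tested genes, 10.3%, 8.76% and 4.8% were called in either direction over the same interval in the parental line, #A-59 and #B-20. The homing integrin subunit Itgb7 went from 44.4 and 56.1 CPM in untreated parental cells to 16.5 and 19.8 CPM after 6 h, and 174 and 189 CPM after 18 h, so that it fell by 1.47 on the log2 scale and then rose by 3.32. In #B-20 it was at 10.7 CPM in both untreated libraries, lower than in parental cells by -2.23 ± 0.14. Itgb7 was also lower in this clone after 6 h (-1.25) and 18 h (-2.25). The egress receptor S1pr1 was lower in #A-59 than in parental cells at 6 h (-1.33) and 18 h (-1.54), and higher in #B-20 than in #A-59 at each time. The chemokine receptor gene Ccr7 was lower in both clones at 6 h (-3.47 for #A-59, or -2.88 by DESeq2 with betaPrior, and -3.25 for #B-20) and 18 h. Its counts were low, and at 6 h it held 15 and 12 in #A-59 and 10 and 16 in #B-20, against 145 and 191 in parental cells. Cr2 and Fcer2a went the other way. Cr2 exceeded the parental level in untreated #B-20 cells (1.54), and after 18 h in #B-20 (2.52) and #A-59 (2.01), calls kept in all 27 alternatives. Its 6 h call for #B-20 (1.07) was lost in 9 of 27. Fcer2a exceeded the parental level after 18 h in #A-59 (1.54), a call kept in all 27. Its 6 h calls, 1.18 for #A-59 and 1.19 for #B-20, were each lost in 6 of 27. At 6 h against 0 h in parental cells, 3 of the 7 fell (Itgb7, Fcer2a and Cxcr5) and Ccr7 rose, against 2.62% of all genes called. In #A-59, 3 of the 7 fell (S1pr1, Fcer2a and Cxcr5), against 1.39% of all genes. The S1pr1 and Cxcr5 calls there were lost in 4 and 2 of 27 alternatives. In #B-20 Fcer2a fell (-1.595), against 0.385% of all genes, a call lost in 7 of 27. From 6 to 18 h, 4 of the 7 were higher in the parental line and in #B-20, and 5 in #A-59, while Cr2 was lower in parental cells (-1.01, a call lost in 6 of 27 alternatives) and higher in #A-59 (1.18, or 0.99 and not called without #A-59 6 h replicate 1). The share of all genes called from 6 to 18 h was 13.5% in the parental line, 9.02% in #A-59 and 4.45% in #B-20.

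The remaining lists of the pathway held the following called genes. Of the 5 tested Sp genes, related zinc finger factors, Sp9 was lower in #B-20 than in parental cells at each time (-2.03, -2.12 and -2.0). It held 29 and 10 counts in the untreated #B-20 libraries, and the value at 0 h was -3.05 without #B-20 0 h replicate 1 and -1.41 without #B-20 0 h replicate 2, called both times. Of 9 tested inputs to Klf2 expression (ERK5, MEF2 and FoxO genes), Mef2c and Foxo1 rose in parental cells from 0 to 18 h (1.03 and 1.04), but 14 and 3 of their 27 alternatives fell short of the limit, with values down to 0.94 and 0.97. Mef2c also rose in #B-20 from 0 to 18 h (1.02), a call lost in 14 of 27 alternatives. In #A-59 it rose from 6 to 18 h (1.31), a call kept in all 27. Of 8 ubiquitin ligase genes, Fbxo32 rose from 0 to 18 h in all 3 genotypes (1.80, 2.22 and 1.38), and its rise from 6 to 18 h was also called in all 3. Fbxo32 was lower in #B-20 than in parental cells at 6 h (-1.03, or -0.96 and not called by DESeq2 with betaPrior) and 18 h (-1.17). Of 9 tested cofactor genes, Hdac2 was called lower at 18 h than at 6 h in parental cells (-1.19). It was lower without a call in #A-59 (-0.76) and #B-20 (-0.70). Wdr5 was called lower at 18 h than at 0 h in #A-59 (-1.05). It was lower without a call in parental cells (-0.94) and #B-20 (-0.67). Of 7 tested growth genes, Ccnd2, encoding cyclin D2, fell by 6 h in all 3 genotypes (-1.14, -1.34 and -1.26), and Myc fell by 18 h in parental cells (-2.48) and #A-59 (-1.92), calls that were lost through the adjusted p when only the groups compared were fitted (-2.53, adjusted p = 0.0158, and -1.93, adjusted p = 0.0226). Ccnd2 was also lower in #B-20 at 18 h than at 0 h (-1.04). Myc was also lower in #A-59 at 6 h than at 0 h (-1.97) and in parental cells at 18 h than at 6 h (-1.48), calls lost in 4 and 5 of 27 alternatives. Against parental cells, Myc was lower in #A-59 at 6 h (-1.625), a call lost in 5 of 27. In all, 17 of the 51 tested genes of these lists, the remaining Klf genes included, were called in at least 1 comparison, beside 29.3% of all 15318 tested genes.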

How the data were processed

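The authors extracted RNA with TRIzol, made non-stranded mRNA libraries and sequenced 50-base single-end reads. Per the labels' processing notes they used bcl2fastq 2.20.0.422, STAR 2.5 on GRCm38 and featureCounts 1.5.0-p1. Counting options are not given in the sources used here. The deposited values are whole-number counts per Ensembl gene, not normalized, and 0 entries name no gene. In non-stranded libraries, reads of exons shared by genes on opposite strands cannot be assigned to a strand. Symbols, exon lengths and GC content came from GENCODE vM39 by identifier (93.2% of genes, 99.6% of counts), and coordinates from RefSeq on GRCm38.

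All else was computed in R 4.3.3. With edgeR 4.0.16 (TMM, filterByExpr, 15318 genes), a robust quasi-likelihood model with 1 mean for each of 9 groups was fitted to all 18 libraries, 2 per group, for 22 comparisons. P-values were adjusted by Benjamini-Hochberg over all tested genes per comparison, and a call needed an FDR under 0.01 together with a log2 fold change outside -1 to 1. The 2 libraries of a group come from separate experiments, as a figure legend of the study states. RPKM is TMM-scaled CPM per 1000 exonic bases. Intervals are standard errors. The 2 libraries of a group differed by more than counting error. Their chi-square per degree of freedom ran from 3.44 (parental, 6 h) to 54.0 (#B-20, 6 h), against 1 for counting error alone, and was 31.3 in #A-59 at 6 h. The fits were tested on simulated data.

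All 8 members are described, with genes of the written lists that were called in at least 1 comparison and the 3 genes most like each member. 1 gene of the written lists was left out and is not reported here. The members and lists were chosen with earlier results of these data known. Alternatives were DESeq2 1.42.0 (with and without betaPrior), its size factors, other count filters, only the groups compared, a replicate block, a GC correction (loess, span 0.5), an FDR under 0.05 without log2 limit, and each library left out.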

Additional observations from a re-analysis of the deposited data

Results flagged for a closer look

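Klf2 differed between the 2 mutant clones in untreated cells, at a log2 fold change of -1.24 for #B-20 against #A-59 in the test of the difference itself. No other member was called between the clones or in the test of its response. The value was -0.89 after GC correction, and the GC content of Klf2 is above that of 98.8% of the tested genes. The part of GC content in this difference was not tested beyond this correction.

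Among the listed genes, those that differed between the clones were Klf8 (3.48, or 4.12 without #A-59 0 h replicate 2, 3.54 and 2.92 at 0, 6 and 18 h), Sp9 (-1.97, -1.98 and -1.73), S1pr1 (1.5, 1.75 and 1.59) and Itgb7 (-1.63, -1.97 and -1.64), each as #B-20 against #A-59. Cr2 (1.25) differed at 6 h and Fcer2a (-1.09) at 0 h. The Sp9 value at 0 h was -2.99 without #B-20 0 h replicate 1. It was not called without #B-20 0 h replicate 2 (-1.35), nor was the Cr2 value without #A-59 6 h replicate 1 (1.07) or #B-20 6 h replicate 1 (1.19). The response to 6 h of anti-IgM differed between #A-59 and parental cells for Itgb7 (1.32) and Ccr7 (-2.50). Between #B-20 and parental cells these differences were 0.985 (edgeR adjusted p = 0.0277) and -2.13 (adjusted p = 0.0694), neither called. In #A-59 the Itgb7 difference lost its call in 1 of 26 alternatives, when only the groups compared were fitted. The Ccr7 difference lost its call in 8 of 26 alternatives, at values of -2.66 to -2.31, and that of Fcer2a in 10 of 27, at -1.42 to -0.83. The Cr2 and Fcer2a values were not called after GC correction (0.94 and -0.99).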

How the results depend on the processing

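The 10 called member values were computed under 27 alternatives each, which gave 270 values, and 257 kept the call, 13 lost it and 0 changed direction. Klf3 in parental cells (-1.56 to -1.18 for 6 h against 0 h and 2.20 to 2.48 for 18 h against 6 h), Klf2 in parental cells from 6 to 18 h (1.57 to 1.91) and both genes in #A-59 from 6 to 18 h (1.22 to 1.43 for Klf2 and 1.04 to 1.47 for Klf3) were called in all of them. The losses were of Klf2 and Klf3 values in #B-20 with GC correction or 1 library left out, and of Klf2 in parental cells at 6 h with 1 library left out, all given in the report. The listed genes had 98 called values, and of their 2635 alternative values 127 lost the call and 0 changed direction.

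The number of member calls for the clones against parental cells at 0 h was 1, and 0 with GC correction and with GC correction and replicate block. At 6 h it was 1, and again 0 with both. For the clones against each other it was 1, and 0 with both. With an FDR under 0.05 and no log2 limit, calls numbered 3 at 0 h, 8 at 6 h and 6 at 18 h for clones against parental cells, 6 for 6 h against 0 h, 11 for 18 h against 0 h, 20 for 18 h against 6 h and 12 between the clones. With at least 10 counts in every library, 1 member was called at 18 h against 0 h in place of 0. With 1 library left out, calls ranged from 0 to 1 for the clones at 0, 6 and 18 h, from 1 to 3 for 6 h against 0 h, from 0 to 1 for 18 h against 0 h and from 4 to 6 for 18 h against 6 h.

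With the replicate number as a replicate block, all 10 member calls remained (for example -1.08 for Klf2 in untreated #B-20 cells against parental cells). Same-numbered libraries of 36 pairs of groups deviated from their group means with correlations of -0.03 to 0.32 and a median of 0.08, with 14 over 0.1, so that the numbers were not taken as pairing the libraries. Standard errors of the member values ranged from 0.10 to 0.24 on the log2 scale, and Klf4 could not be tested at this depth.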
